A study of Saccharomyces cerevisiae with 4 samples.

Results

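The proteasome genes of Saccharomyces cerevisiae and their activator gene RPN4 were examined on 4 Affymetrix yeast arrays, 2 from cultures with galactose as the sugar and 2 from cultures with glucose. The members are 34 of the 5656 genes that have a probe set naming them alone, and the brightest such probe set stands for each gene. They comprise 14 genes of the core particle, 18 of the regulatory particle, the assembly factor gene UMP1 and RPN4. All 34 were found, all lay above the intensity floor of 18.5 on every array, and all were among the 5403 genes tested.

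All 4 samples came from strain ATCC 4126, grown in YP-based rich medium and taken for total RNA at an OD 600 of 1.0. The galactose arrays carry the letters B and C and the glucose arrays A and B in their labels, which do not say whether a letter marks a separate culture. The p-values thus cover only array-to-array spread within a medium, and that spread may be technical. The arrays compare equal parts of total RNA, so fewer cells making a transcript and less of it per cell cannot be told apart. The galactose genes stood as labelled, with GAL1, the galactokinase gene, at 9927 and 8965 on galactose B and galactose C, against 36.2 and 40.4 on glucose A and glucose B. The probe sets follow the reference strain, and whether ATCC 4126 differs under them was not tested.

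The proteasome is the protease that breaks down proteins marked with ubiquitin. Its core particle is a stack of alpha rings, which gate the entrance, around beta rings, which hold the cutting sites. A regulatory particle caps the stack: its base unfolds substrates with a ring of ATPases and, with its lid, recognises the ubiquitin chain and removes it. Rpn4 is a transcription factor that binds a shared promoter element, called PACE, upstream of most proteasome genes. It is itself destroyed by the proteasome, so that yeast adjusts the synthesis of proteasome subunits to the activity present.

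The comparison of the media asks whether growth on galactose goes with a different level of these transcripts. The 34 genes were close to level, with a median difference of 0.01 on the log2 scale in galactose relative to glucose and a middle range (25th to 75th percentile) from -0.11 to 0.10. Over all 5403 tested genes the median was -0.03 and the middle range ran from -0.30 to 0.20. Of the 34, 33 differed by less than 1.5-fold (97.1%), as did 82.6% of all tested genes. RPN4 stood highest of the 34 and RPN13, a ubiquitin receptor gene of the base, lowest.

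None of the 34 passed the test (limma with the Benjamini-Hochberg adjustment over 7302 probe sets, threshold 0.05): 0 rose and 0 fell. Of all 5403 tested genes, each by its brightest probe set, 12 rose and 2 fell. Of all tested probe sets, including those that name several genes or none, 0.794% rose and 0.0411% fell. The adjusted p-values of the 34 members ran from 0.56 to 0.998. At an unadjusted p under 0.05 there were 0 members above and 1 below, where 2.48% and 3.98% of the tested genes were. The galactose arrays were both higher than either glucose array for 4 members, against 15.1% of genes, and both lower for 2 members, against 23.6% of genes. The 95% limits of the difference lay within 2-fold either way for 31 of the 34 genes, against 2504 of the 5403 tested genes. The other 3 members were RPN4, RPN12 and RPN13.

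**Figure D1:**
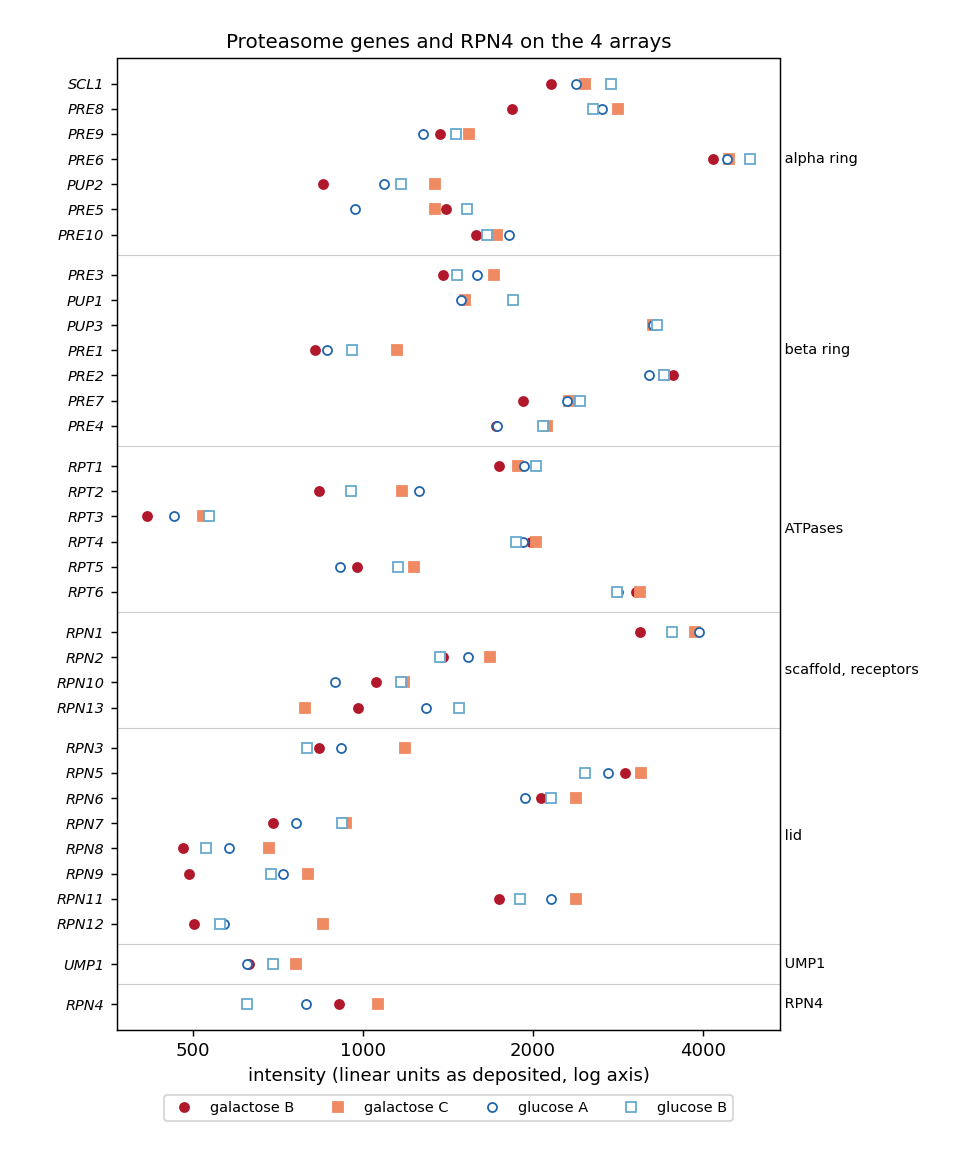
Intensity (horizontal log axis, linear units as deposited) of each of the 34 genes on the galactose arrays (filled, circle B and square C) and the glucose arrays (open, circle A and square B), grouped by place in the complex. For most genes the 4 points lie close together. Galactose C is the rightmost point for 21 genes, against 30.9% of all tested genes. Galactose B is the leftmost for 18, against 25.4%.

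RPN4 (YDL020C) stood at 909 and 1064 in galactose and at 793 and 623 in glucose. The galactose arrays were both the higher ones, and galactose B was nearer to glucose A than the glucose arrays were to each other. The means were 986 ± 110.0 in galactose and 708 ± 121 in glucose (SD, n = 2 per medium here and below). The ratio was 1.40, with 95% limits of 0.888 and 2.20, and it did not pass (adjusted p = 0.652). The Rpn4 protein is short-lived, and its amount was not measured.

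The alpha ring genes overlapped between the media in all 7 cases, as did 3311 of the 5403 tested genes, and the group had a median log2 difference of -0.08. PRE9 (YGR135W), the subunit of the ring that yeast can live without, stood at 1368 and 1543 in galactose and at 1276 and 1459 in glucose. PRE8 (YML092C), another ring subunit, stood at 1839.8 and 2822 in galactose and at 2653 and 2556 in glucose. Its glucose arrays were close together and the galactose arrays lay on either side of them (ratio 0.875, 95% limits 0.525 to 1.46, adjusted p = 0.873). PUP2 (YGR253C) had the same layout, at 849.6 and 1344 in galactose and at 1092 and 1169.6 in glucose. PRE5 (YMR314W) differed mainly between the glucose arrays, at 1402 and 1342 in galactose and at 968 and 1528 in glucose. The remaining 3, SCL1, PRE6 and PRE10, had ratios of 0.901, 0.931 and 0.955.

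The beta ring genes also overlapped in all 7 cases, as did 3311 of the 5403 tested genes. Their median log2 difference was 0.01, with ratios from 0.892 (PRE7) to 1.07 (PRE1). Cutting sites sit on 3 of these subunits. PRE2 (YPR103W), whose product cuts after hydrophobic residues, stood at 3535 and 3413 in galactose and at 3213 and 3415 in glucose (log2 difference 0.07, 95% limits -0.45 to 0.59). PUP1 (YOR157C), whose product cuts after basic residues, stood at 1503 and 1514 in galactose and at 1494 and 1842 in glucose. PRE3 (YJL001W), whose product cuts after acidic residues, stood at 1387 and 1705 in galactose and at 1589.7 and 1468 in glucose. Galactose values lay inside the glucose range on 1 array for PRE2 and on both for PUP1, while those of PRE3 lay on either side of it. PUP3 (YER094C), a beta subunit without a cutting site, was the most even gene of the 34, at 3269 and 3262 in galactose and at 3261 and 3319 in glucose. PRE4, the last of the ring, had a ratio of 1.01.

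The platform annotation names PRE3 alone for 2 further probe sets, both dimmer. Whether they also match other sequences was not tested. The first stood at 445 and 845 in galactose and at 709 and 671 in glucose. The second stood at 428 and 842 in galactose and at 879 and 599 in glucose. On both, galactose B was the lowest array, as on the brightest probe set, and by a wider margin (log2 differences between galactose B and galactose C of -0.93 and -0.97, against -0.30).

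The 6 ATPase genes of the base had a median log2 difference of -0.01, and 3 of them were apart between the media, by small amounts. Of all 5403 tested genes, 3311 overlapped between the media and the rest were apart. RPT6 (YGL048C) stood at 3041 and 3089 in galactose and at 2823 and 2818 in glucose, a ratio of 1.09 with 95% limits of 0.761 and 1.55 (adjusted p = 0.888). RPT4 (YOR259C) stood at 1983 and 2023 in galactose and at 1919.7 and 1869 in glucose, a ratio of 1.06. RPT1 (YKL145W) lay the other way, at 1739 and 1878 in galactose and at 1928 and 2024 in glucose, a ratio of 0.915. The ATPases form 1 ring with equal numbers of each subunit, and these 3 differences did not share a direction. RPT2, RPT3 and RPT5 overlapped, with ratios of 0.905, 0.936 and 1.07.

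The probe sets of RPT5 (YOR117W) disagreed in sign. The brightest stood at 976 and 1233 in galactose and at 909.5 and 1154 in glucose, a log2 difference of 0.10. A dimmer one stood at 183 and 282 in galactose and at 514 and 351 in glucose, a log2 difference of -0.90 that did not pass (adjusted p = 0.591). The other two were dimmer still and had log2 differences of -0.37 and -0.27, the last with 3 of its 4 arrays under the floor.

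Of the other 4 base genes, RPN13 stood apart. RPN13 (YLR421C), a receptor for ubiquitin chains, stood at 980.4 and 789 in galactose and at 1293 and 1477 in glucose. Its means were 885 ± 136 in galactose and 1385 ± 130.1 in glucose, a ratio of 0.636 with 95% limits of 0.413 and 0.981. It was the 1 member with an unadjusted p under 0.05 (0.0436) and did not pass over all probe sets (adjusted p = 0.56). Over 14 other settings the log2 difference ran from -0.81 to -0.50. Leaving out 1 array could not turn its sign, since both galactose arrays lay below both glucose arrays. Changes of the floor, of the limma fit or of the probe sets used left it at or near -0.65. RPN10 (YHR200W), a receptor at the joint of base and lid, stood at 1053 and 1182 in galactose and at 891 and 1170.1 in glucose, and overlapped between the media. The scaffold genes RPN1 and RPN2, which hold the ATPase ring and its partners, also overlapped, with ratios of 0.927 and 1.05.

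The lid genes had a median log2 difference of 0.08, and 7 of 8 overlapped between the media, as did 3311 of the 5403 tested genes. RPN5 (YDL147W), a structural lid subunit, was apart, at 2913 and 3103 in galactose and at 2714 and 2471 in glucose (ratio 1.16, 95% limits 0.803 to 1.68, adjusted p = 0.794). RPN11 (YFR004W), the enzyme that removes ubiquitin from the substrate, stood at 1745 and 2381 in galactose and at 2156 and 1898 in glucose. Here the galactose arrays enclosed the glucose arrays, and the ratio was 1.01. RPN12 (YFR052W), another lid subunit, stood at 503 and 851 in galactose and at 567 and 559.7 in glucose, a ratio of 1.16 that rested on galactose C alone. Its 95% limits, 0.640 and 2.11, reached past 2-fold. The ratios of RPN3, RPN6, RPN7, RPN8 and RPN9 ran from 0.892 to 1.17. UMP1 (YBR173C), which helps core particles mature, stood at 628 and 762 in galactose and at 624 and 693 in glucose (ratio 1.05, 95% limits 0.684 to 1.62).

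**Figure D2:**
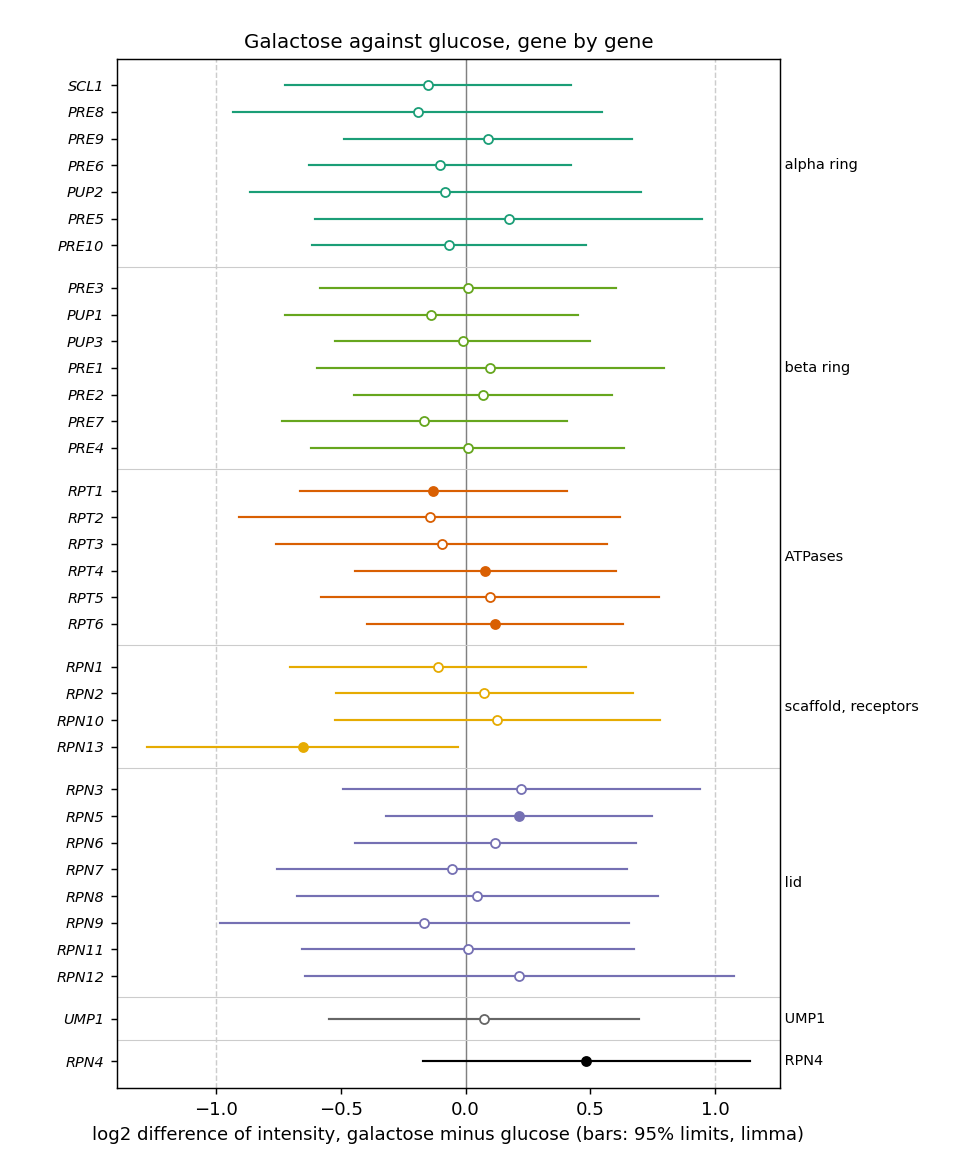
Log2 difference of intensity, galactose minus glucose, for each gene (points) with 95% limits from limma (bars). Filled points are genes whose galactose arrays lie both above or both below the glucose arrays, and dashed lines mark 2-fold. Of the 34 bars, 33 cross zero, and the bar of RPN13 ends at a ratio of 0.981.

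Inside the galactose medium the arrays differed in a shared direction. Galactose B lay below galactose C for 30 of the 34 genes, against 49% of all tested genes. The median log2 difference, galactose B minus galactose C, was -0.27, with a middle range from -0.44 to -0.10. Over all tested genes it was 0.01, with a middle range from -0.40 to 0.40. The 4 exceptions were RPN13, PRE5, PRE2 and PUP3. With 1 array against 1, this difference has no replicate check.

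The size of this difference was modest. Galactose B lay below galactose C by more than 1.5-fold for 4 members, against 17.2% of tested genes, and above it by as much for 0 members, against 17.3%. The 4 were RPN12 (1.69-fold), RPN9 (1.62-fold), PUP2 (1.58-fold) and PRE8 (1.53-fold). No member reached 2-fold. The shift depends on how the arrays are scaled. With the arrays set to a common median, the median of all tested genes was -0.10 and that of the members -0.39, with 33 of 34 below. After quantile normalization the members' median was -0.13, with 24 of 34 below. The shares of all tested genes given above hold for the deposited values and were not counted under these other scalings. Relative to the median of all tested genes, the members' median was -0.28 as deposited, -0.29 with a common median and -0.12 after quantile normalization.

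Of the 5 subunit groups, the lid genes had the widest median gap between the galactose arrays. All 8 lid genes lay lower on galactose B, with a median log2 difference of -0.48, and all 8 were highest on galactose C, which was the highest array for 30.9% of tested genes. RPN9 (YDR427W) stood at 493 on galactose B and 800.3 on galactose C, with 722 and 688 in glucose. RPN8 (YOR261C), the inactive partner of Rpn11, stood at 480.0 on galactose B and 683 on galactose C, with 581 and 529 in glucose. In both genes the glucose arrays lay between the galactose arrays. The medians of the other subunit groups were -0.17 for the alpha ring, -0.27 for the beta ring, -0.22 for the ATPases and -0.22 for the scaffold and receptor genes. Whether the lid differs from these groups was not tested. The values by group hold for the deposited intensities and were not computed under the other scalings.

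On the log2 scale and relative to each gene's glucose mean, the members' median was -0.14 for galactose B and 0.16 for galactose C. Over all tested genes the medians were -0.06 for galactose B and -0.02 for galactose C. The near-zero difference between the media is thus the mean of a lower and a higher galactose array, and without galactose C it was -0.14 and without galactose B 0.16. RPN4 lay above its glucose mean on both galactose arrays, by 0.37 and 0.60.

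**Figure D3:**
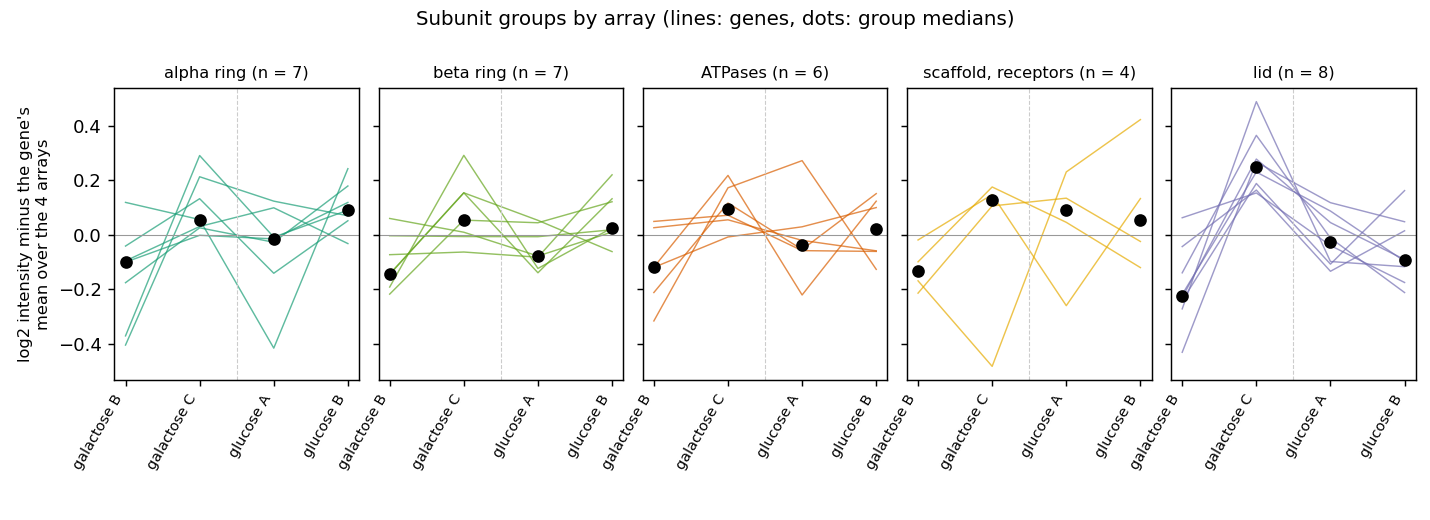
Log2 intensity of each gene minus its own mean over the 4 arrays, in 5 subunit groups (lines are genes, black dots group medians), with the galactose arrays left of the dashed line and the glucose arrays right of it. In the intensities as deposited, the lid genes peak together on galactose C, while the other groups are more mixed.

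Inside the glucose medium no shared direction was seen. Glucose A lay above glucose B for 15 of 34 members, against 43.4% of tested genes, and the median log2 difference, glucose A minus glucose B, was -0.07 against -0.05 over all tested genes. Past 1.5-fold, glucose A lay below glucose B for 1 member, PRE5 (1.58-fold), against 7.59% of genes, and above it for 0 members, against 8.46%. By particle, glucose A lay above glucose B for 3 of 14 core genes and for 11 of 18 regulatory particle genes. RPN4 lay 1.27-fold higher on glucose A, while RPT2 had the widest difference in that direction, at 1.32-fold.

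**Figure D4:**
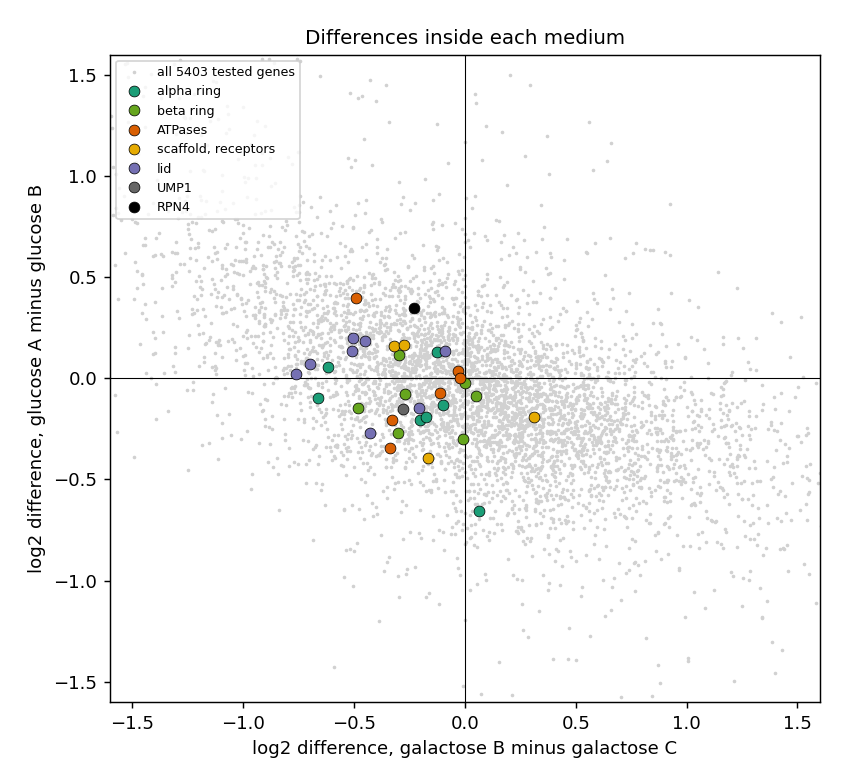
Log2 difference between the galactose arrays (horizontal, galactose B minus galactose C) and between the glucose arrays (vertical, glucose A minus glucose B), with the 34 members in colour over all 5403 tested genes in grey, 212 of which lie outside the plotted range. Of the coloured points, 30 lie left of zero, and they spread to both sides of the horizontal line.

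Position on the chromosomes linked few members. In the RefSeq annotation of assembly R64, 2 pairs have 1 gene between them and no other pair has fewer than 3. PRE4 and RPN12 had log2 differences between the media of 0.01 and 0.22, and RPT4 and RPN8 had 0.08 and 0.05. Inside galactose the first pair differed by -0.30 and -0.76 and the second by -0.03 and -0.51, so the partners had the same sign and unequal size. That sign was shared by 30 of the 34 members, so it cannot tell neighbours from other members.

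Of 46 other genes of the ubiquitin-proteasome pathway, 0 passed the test over all probe sets, with 1 above and 1 below at an unadjusted p under 0.05, against 2.48% and 3.98% of all tested genes. Their median log2 difference was 0.14, against -0.03 over all tested genes. The galactose arrays were both higher for 8 of the 46, against 15.1% of tested genes, and both lower for 5, against 23.6%. The 8 other assembly chaperones had a median of 0.19. ADD66, which helps build the alpha ring, stood at 913 and 1107 in galactose and at 775 and 742 in glucose (ratio 1.33, adjusted p = 0.68), and its partner PBA1 at 1361 and 863 in galactose and at 932 and 1060.3 in glucose. The partners thus differed in opposite directions between the galactose arrays. Of the 6 proteasome-bound proteins and caps, the deubiquitinase gene UBP6 had a ratio of 0.993, the alternative cap gene BLM10 1.14 and the ligase gene HUL5 1.21. A dimmer probe set of BLM10 lay the other way, at 648 and 346 in galactose and at 467 and 683 in glucose (ratio 0.838).

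Among 7 genes for ubiquitin and the enzymes that activate and carry it, RAD6 differed most. RAD6, a conjugating enzyme, stood at 253 and 259 in galactose and at 436 and 382 in glucose, a ratio of 0.628 with 95% limits of 0.408 and 0.968 (adjusted p = 0.555). The conjugating enzyme genes UBC4 and UBC1 had ratios of 1.14 and 0.846. The polyubiquitin gene UBI4, picked out once its values were known, stood at 1474 and 2759.6 in galactose and at 1662 and 1391 in glucose. Galactose C was its highest array, as it was for 22 of the 46 pathway genes and 30.9% of all tested genes. Of 8 shuttle and Cdc48 genes, the segregase gene CDC48 had a ratio of 1.11, and the shuttle receptor genes DSK2 and RAD23 had log2 differences of 0.03 and -0.32.

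Of 7 ubiquitin ligase genes, HRD1, which acts on misfolded proteins of the endoplasmic reticulum, differed most. It stood at 259 and 332 in galactose and at 161 and 185 in glucose, a ratio of 1.70 with 95% limits of 1.03 and 2.78 (adjusted p = 0.555). The ligase genes UBR1 and RSP5 had ratios of 1.15 and 1.01. Of 4 deubiquitinase genes, UBP3 and UBP2 had log2 differences of -0.44 and -0.07.

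The 6 genes that set the level of Rpn4 had a median log2 difference of 0.29, and 3 of them, HSF1, UBR2 and MUB1, were higher on each galactose array than on either glucose array, as were 15.1% of tested genes. HSF1, the heat shock factor, which can activate RPN4, stood at 889 and 649 in galactose and at 516 and 552 in glucose (ratio 1.42, adjusted p = 0.652). UBR2 and MUB1, whose products mark Rpn4 for destruction, were picked out once their values were known. They had ratios of 1.38 and 1.35 (adjusted p = 0.694 and 0.693). PDR1, another activator of RPN4, had a ratio of 0.973. Inside galactose, array B was the higher one for 5 of these 6 genes, against 2724 of the 5403 tested genes, and the median of galactose B minus galactose C was 0.19. The same median was -0.36 for the assembly chaperones, -0.27 for the proteasome-bound proteins and caps, -0.33 for ubiquitin and its enzymes and -0.30 for the shuttle and Cdc48 genes. It was 0.01 for the ligases, -0.0036 for the deubiquitinases and -0.17 over all 46 genes, of which 28 were lower on galactose B.

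**Figure D5:**
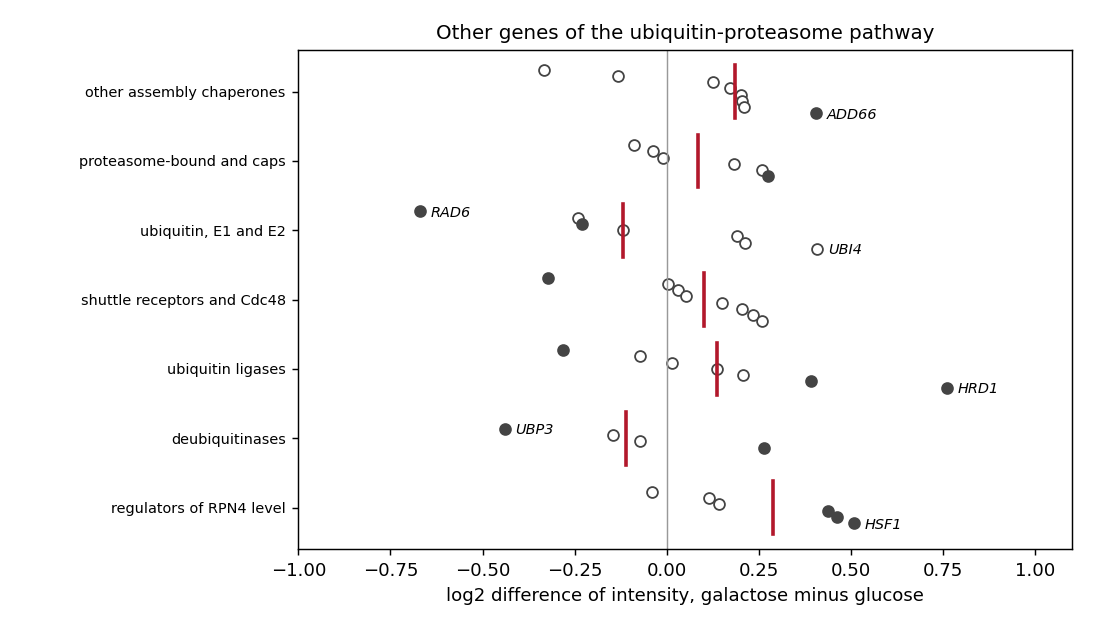
Log2 difference of intensity, galactose minus glucose, for 46 other pathway genes in 7 lists (points are genes, red bars list medians). Filled points are genes whose galactose arrays lie both above or both below the glucose arrays; none passed the test, and HRD1 and RAD6 lie farthest to either side.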

How the data were processed

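Each probe set has 1 linear intensity per array, as deposited by the authors. How probes were summarised, corrected for background and scaled is not given in the sources used here. They were used without scaling, since the array medians (108 to 117) differed by a factor of 1.08, under a limit of 1.1. Of 9335 probe sets, 60 array controls were left out. GEO's platform annotation named 1 gene for 6504 probe sets, more than 1 for 328 and no gene for 2443; all 6504 were matched by gene number to RefSeq (assembly R64). Values under the 25th percentile (18.5) were set to it, log2 was taken, and 7302 probe sets above it on any array were tested with limma 3.58.1 in R 4.3.3 (lmFit, eBayes with trend, 2 residual and 4.73 total degrees of freedom), with Benjamini-Hochberg adjustment over all probe sets. The fit was tested on simulated data. Means and SDs are of the intensities as deposited. Ratios and their limits come from the difference of mean log2 values, so a ratio can differ from the quotient of the printed means. With 2 arrays per medium the number of arrays limits the precision.

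The members were given by name. They and the pathway lists were chosen with earlier results of these data known. All members could be named; of each other list, those that passed, or else the 2 brightest and the gene with the largest difference. Promoter sequences were not used here. Tables and figures were made with Python 3.11.15, pandas 2.3.3 and matplotlib 3.10.9.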

Additional observations from a re-analysis of the deposited data

How the results depend on the processing

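The results were compared over 14 other settings. In each of those with all 4 arrays, 0 of the 34 members passed. The lowest adjusted p (limma) of any member there was 0.528, with a floor at the 40th percentile. With 1 array left out no probe set of any gene passed, so these settings could not show whether members pass. RPN4 stayed above its glucose level in all 14 (log2 0.31 to 0.66), but most of these settings could not have turned its sign. Its lower galactose value, 909, exceeded its higher glucose value, 793, so the sign had to hold with 1 array left out. Changes of the floor, of the limma fit or of the probe sets used left its log2 difference at 0.47 or 0.48. Quantile normalization and a common median each gave 0.50. The count of 14 is thus a weak check of the sign. The members' median difference between the media ran from -0.14 to 0.16 with 1 array left out, and the sign turned for 7 to 10 members each time. Members lower on each galactose array than on either glucose array numbered 2, but 1 after quantile normalization and with a common median and 3 with each gene's probe sets averaged. The median between the galactose arrays, -0.27, was -0.13 after quantile normalization and -0.39 with a common median. Members with galactose B more than 1.5-fold lower, 4, numbered 2 and 8 in the same order. The share of all tested genes past 1.5-fold was not counted under these scalings. Past 2-fold there were 0 between the galactose arrays and 0 between the glucose arrays. Over all probe sets, 58 rose and 3 fell. With a floor at the 10th percentile 32 rose and after quantile normalization 25; it was 5 and 1 with 1 probe set per gene or its mean, and 0 and 0 without any 1 array; the cause was not tested. No paired analysis was possible because the media share only the letter B. The planned look at the PACE element was not run, since promoter sequences were not used here. With 2 arrays per medium the members' 95% limits had a median half-width of 0.62 on the log2 scale.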
